A study of Homo sapiens with 12 samples.

Results

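The REST and CoREST repressor genes are 8 genes that were chosen by symbol from the 16389 genes of the count table: REST, RCOR1, RCOR2, RCOR3, KDM1A, SIN3A, SIN3B and NCOR1. All 8 were found, and all 8 had enough reads to be tested in every comparison, with 593 reads or more in each library. They were measured by RNA-seq of poly(A) RNA in HepG2 cells, an established human liver cancer cell line that was used at passage 9. The groups were low glucose (LG, 5.5 mM glucose), high glucose (HG, 20 mM glucose for 48 h), and the same media followed by 12 h with 1 mM valproic acid (LGV and HGV), with 3 libraries in each of the 4 groups and 12 in all. Valproic acid (VPA) is an anticonvulsant that also inhibits class I and IIa histone deacetylases. All cells were kept in the same medium with fetal bovine serum, and whether untreated cells were collected before or after the further 12 h is not stated. Nothing states that the 3 libraries of a group came from separate cultures, so the p-values below measure the spread between these libraries, which may be technical. In bulk RNA, fewer cells that express a gene and less RNA of it per cell cannot be told apart.

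REST (RE1-silencing transcription factor, also called NRSF) is a zinc finger protein that binds the RE1 element and keeps neuronal genes off in liver and other non-neuronal cells. One end of the protein recruits SIN3A or SIN3B, scaffolds that hold HDAC1 and HDAC2, and the other recruits CoREST, in which an RCOR scaffold joins the same deacetylases to the histone demethylase KDM1A (LSD1). NCOR1 is the scaffold of a related complex that holds HDAC3 and is best known for repression by unliganded nuclear receptors. Histone deacetylases are therefore the enzymes that all of these scaffolds share, and they are what VPA inhibits.

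The libraries held between 29798442 and 45572694 counted reads, with TMM factors from 0.879 to 1.095. The 11 hepatocyte markers (such as ALB, APOB and HNF4A) were all in the table and summed to between 40603 and 62079 CPM (counts scaled to library size and TMM factors), with the lowest sums in LGV (40603 to 41530), a difference whose part in the results was not tested. Of 4 neuron markers, MAP2, ELAVL3 and ELAVL4 were not in the table and RBFOX3 did not pass 0.714 CPM in any library. Of the 4 fibroblast markers, 2 were in the table and summed to between 18.8 and 58.3 CPM, and the 2 listed endothelial markers of 4 summed to at most 4.85 CPM. The leukocyte markers PTPRC and CD68 were not in the table, while CD14 and LYZ together reached 909 to 1549 CPM. Libraries of one group differed in a way that followed the GC content of the genes. Across 11351 genes, the rank correlation between exon GC content and the deviation of a library from its group mean was -0.68 in HG 1, 0.64 in HG 2 and 0.65 in LG 1, and lay between -0.35 and 0.35 in the other libraries. Members were therefore also compared without each of these libraries in turn and with an offset for GC content and length. The main values that moved are given below. The offset was fitted to the deviation of each library from the mean of all libraries compared. It therefore also takes out any difference between groups that follows GC content or length, and what it removes within and between groups cannot be told apart. The exon GC content of the members ran from 39.0% for RCOR3 and 41.9% for REST to 56.0% for SIN3B and 64.1% for RCOR2.

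With VPA in high glucose, 6 of the 8 genes differed at an FDR of 0.05 or less (edgeR quasi-likelihood test, Benjamini-Hochberg adjustment over all tested genes): RCOR1 and RCOR2 were higher in HGV than in HG, and REST, RCOR3, SIN3B and NCOR1 were lower. Of all 16188 genes tested in this comparison 46.1% were called, 25.8% higher and 20.2% lower. With VPA in low glucose, 3 of the 8 were called, RCOR1 and RCOR2 higher and SIN3B lower, where 41.6% of 15944 genes were called, 21.7% higher and 19.9% lower. The share of 3 of 8 is thus close to that of all genes. The median log2 fold change of the 8 genes was -0.14 in high and -0.06 in low glucose, and that of all tested genes 0.02 and -0.01. RCOR1 and RCOR2 were called higher in both media and SIN3B lower in both, and no member was called in opposite directions. The split of calls over all genes depends on the scaling: in high glucose 56.1% of the called genes were higher with TMM factors, 68.1% with library size alone and 36.1% with the GC and length offset, and in low glucose 52.1%, 69.7% and 36.3%. The median of all genes stood at 0.15 and 0.16 with library size alone and at -0.16 and -0.15 with the offset, in high and low glucose. Values of the members and of all other genes under these settings, and calls lost or gained with them, are to be read against those medians.

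**Figure D1:**
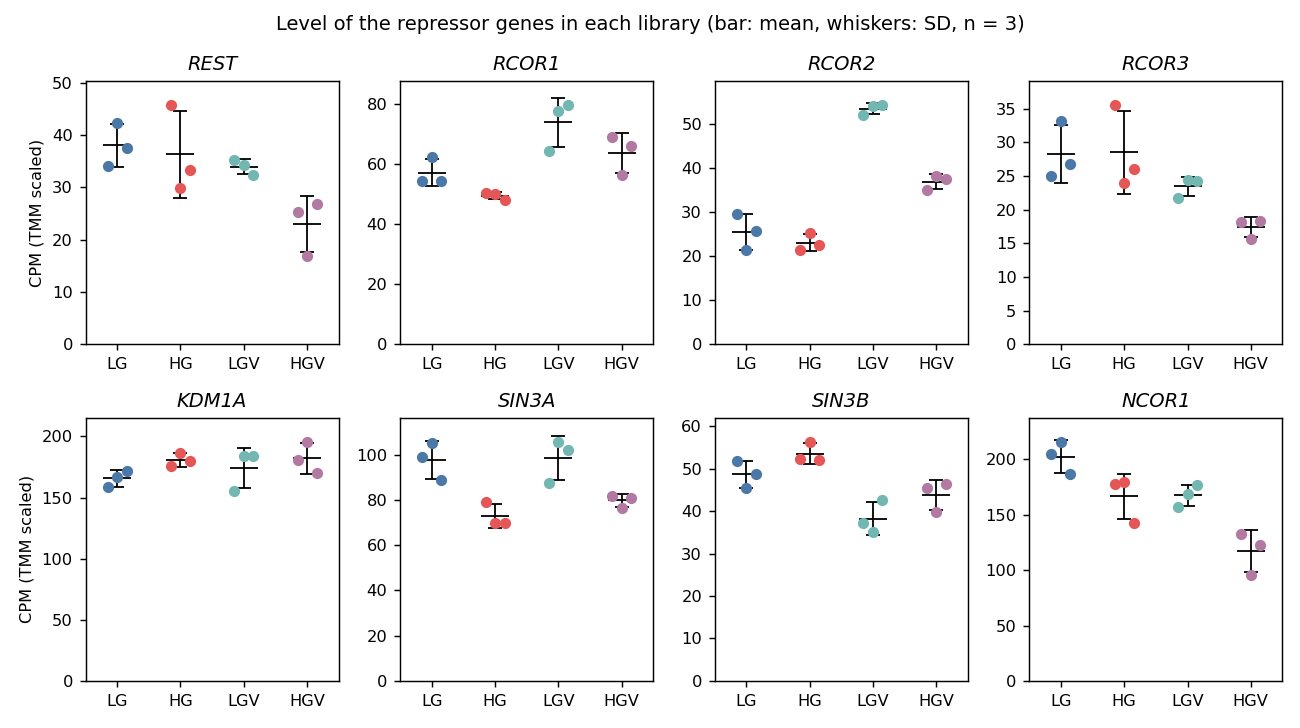
Level of each repressor gene in every library, in CPM (y axis, starting at 0), for LG, HG, LGV and HGV. Points are libraries, bars are means and whiskers SD (n = 3). RCOR2 is the gene whose VPA libraries sit clear of all untreated ones, at 34.9 CPM or more against 29.5 CPM or less.

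REST (ENSG00000084093, GRCh37 chr4:57774042-57832974, plus strand) was measured at 34.2, 42.3 and 37.6 CPM in LG, 45.8, 30.0 and 33.2 CPM in HG, 35.3, 34.3 and 32.4 CPM in LGV, and 25.3, 17.0 and 26.8 CPM in HGV. The 3 HGV libraries were the lowest of the 12 and did not overlap with any other group, while LG, HG and LGV overlapped. REST fell with VPA in high glucose by 0.66 on the log2 scale (SE 0.19, edgeR FDR 0.0124), a 1.58-fold lower level. In low glucose its log2 difference with VPA was -0.15 (SE 0.12, FDR 0.354). The difference between these effects was -0.50 (SE 0.24) and did not pass the test across genes (edgeR interaction, FDR 0.436, unadjusted p = 0.0481), so a dependence on glucose was not shown. High against low glucose gave -0.05 (FDR 0.843) without VPA and a fall of 0.58 (SE 0.15, FDR 0.00533) with it.

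One library on each side carried part of the change of REST in high glucose: HG 1, the highest of the 12, and HGV 2, the lowest. Without HG 1 the log2 fold change was -0.48 (edgeR FDR 0.044) and without HGV 2 it was also -0.48 (FDR 0.0243). With the GC and length offset it was -0.81 in high glucose, and in low glucose the offset brought it to -0.35 (FDR 0.0178), past the threshold. The median of all genes with the offset was -0.16 and -0.15. Exons of REST share 0.861% of their bases with NOA1 on the other strand.

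The RCOR genes encode the CoREST scaffolds, and RCOR1 (ENSG00000089902, chr14:103058986-103196898, plus strand) is the one first purified with KDM1A. Its levels were 54.5, 62.4 and 54.4 CPM in LG, 50.3, 49.9 and 48.0 CPM in HG, 64.5, 77.6 and 79.7 CPM in LGV, and 69.0, 56.3 and 65.9 CPM in HGV. All LGV libraries were above all LG libraries and all HGV libraries above all HG libraries, with the lowest VPA library (HGV 2) below the highest LG library. RCOR1 was higher with VPA by 0.38 on the log2 scale in low glucose (SE 0.12, edgeR FDR 0.0201) and by 0.37 in high glucose (SE 0.11, FDR 0.0148). These are 1.30-fold and 1.29-fold differences. Both calls were lost with the GC and length offset, which gave 0.23 (FDR 0.144) and 0.21 (FDR 0.0525), beside medians of all genes of -0.15 and -0.16. The low glucose call was also lost without LGV 2 (0.35, FDR 0.0774), LGV 3 (0.34, FDR 0.0923) or LG 1 (0.34, FDR 0.076), and the high glucose call without HGV 1 (0.31, FDR 0.0682) or HG 3 (0.34, FDR 0.0726).

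RCOR2 (ENSG00000167771, chr11:63678702-63684636, minus strand), a paralogue known mainly from embryonic stem cells and the developing nervous system, showed the largest VPA difference among the 8 genes in low glucose. Its levels were 29.5, 21.4 and 25.6 CPM in LG, 21.4, 25.2 and 22.6 CPM in HG, 52.0, 54.1 and 54.3 CPM in LGV, and 34.9, 38.1 and 37.6 CPM in HGV. The untreated groups overlapped, HGV lay above both, and LGV lay above HGV without overlap. RCOR2 rose by 1.08 on the log2 scale with VPA in low glucose (SE 0.13, edgeR FDR 1.46e-05), which is 2.12-fold, and by 0.68 in high glucose (SE 0.11, FDR 0.000314), which is 1.60-fold. Leaving out any single library kept both calls, between 0.96 and 1.19 in low glucose and between 0.60 and 0.74 in high glucose. RCOR2 is the most GC-rich of the 8, and with the GC and length offset the low glucose difference was 0.82 (FDR 5.21e-05) while the high glucose one was 0.19 and lost its call (FDR 0.0607). Medians of all genes were then -0.15 and -0.16. Under VPA, RCOR2 was lower in high than in low glucose by 0.55 (SE 0.11, FDR 0.000952), and with the offset this difference was -0.77 (FDR 2.1e-05). Without VPA the log2 difference between high and low glucose was -0.12 (FDR 0.609). The interaction of -0.39 (SE 0.18) did not pass the edgeR test across genes (FDR 0.405, unadjusted p = 0.0386).

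RCOR3 (ENSG00000117625, chr1:211431719-211489727, plus strand), the paralogue that has been described to limit demethylation by KDM1A, differed in the other direction. The libraries held 24.9, 33.2 and 26.8 CPM in LG, 35.6, 24.0 and 26.0 CPM in HG, 21.8, 24.4 and 24.2 CPM in LGV, and 18.2, 15.6 and 18.4 CPM in HGV. The HGV libraries were the 3 lowest, and all LGV libraries were below all LG libraries, although LGV 2 (24.4 CPM) exceeded HG 2 (24.0 CPM). RCOR3 fell with VPA in high glucose by 0.71 on the log2 scale (SE 0.15, edgeR FDR 0.00218), 1.64-fold, and the value without HG 1, its highest library, was -0.55 (FDR 0.00462). In low glucose the difference was -0.26 (SE 0.14, FDR 0.152). With the GC and length offset it was -0.49 (FDR 0.0078), beside a median of all genes of -0.15. RCOR3 was also lower in HGV than in LGV, by 0.45 (SE 0.13, FDR 0.0101), a call that was lost without LGV 3 (-0.43, FDR 0.0547). Its interaction was -0.44 (SE 0.22, FDR 0.446).

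A ratio of 2 genes within a library does not depend on how libraries are scaled, so the makeup of the RCOR transcripts was compared directly as a ratio of reads. The ratio RCOR2/RCOR1 was 0.452 ± 0.101 in LG (SD, n = 3), 0.467 ± 0.0395 in HG, 0.728 ± 0.0674 in LGV and 0.585 ± 0.0865 in HGV. It was higher with VPA by 0.51 on the log2 scale, as a mean over both media (two-sided exact permutation test within media over 400 arrangements, p = 0.005, the smallest it allows, BH-adjusted over 6 tests 0.0075). The ratio RCOR3/RCOR1 was 0.494 ± 0.0374 in LG, 0.576 ± 0.118 in HG, 0.319 ± 0.0171 in LGV and 0.273 ± 0.0084 in HGV, and it fell with VPA by 0.84 (exact permutation p = 0.005, adjusted 0.0075). No VPA library overlapped with an untreated library in RCOR3/RCOR1, whereas HGV 1 (0.506) lay below LG 1 (0.542) in RCOR2/RCOR1. Glucose did not pass the test for either ratio, with log2 differences of -0.13 (exact permutation p = 0.375, adjusted 0.45) and -0.01 (exact permutation p = 0.95, adjusted 0.95). Relative to RCOR1 there were thus fewer RCOR3 reads with VPA in both media. The genes differ in GC content (44.6% for RCOR1). With the GC and length offset, the difference between the log2 fold changes of RCOR2 and RCOR1 was 0.59 in low glucose (0.70 without it) and -0.02 in high glucose (0.31 without it), so the relative rise of RCOR2 did not remain in high glucose. That between RCOR3 and RCOR1 was -0.72 in low and -1.05 in high glucose (-0.64 and -1.08 without it).

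**Figure D2:**
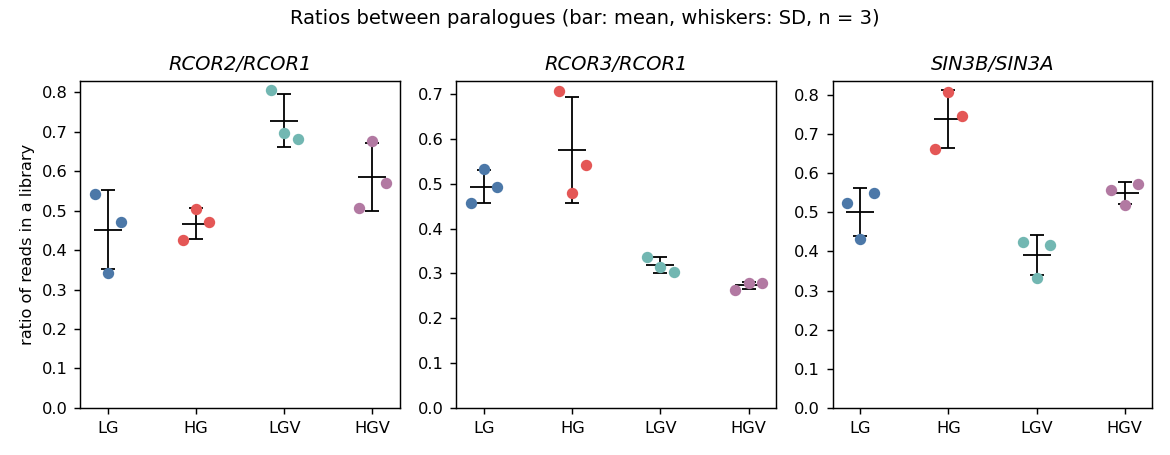
Ratio of reads between paralogues in each library (y axis, no unit, starting at 0) for LG, HG, LGV and HGV. Points are libraries, bars are means and whiskers SD (n = 3). RCOR3/RCOR1 is at most 0.338 in the VPA libraries and at least 0.457 in the untreated ones, while SIN3B/SIN3A is higher in high glucose and lower with VPA.

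KDM1A (ENSG00000004487, chr1:23345936-23410182, plus strand), the demethylase that removes methyl groups from lysine 4 of histone H3, was the member that passed no test in any comparison. KDM1A stood at 159, 167 and 172 CPM in LG, 176, 186 and 180 CPM in HG, 156, 184 and 184 CPM in LGV, and 180, 196 and 170 CPM in HGV. Neighbouring groups in the order HGV, HG, LGV and LG overlapped, although all HG libraries were above all LG libraries. Its log2 differences with VPA were 0.09 in low glucose (SE 0.12, edgeR FDR 0.601) and 0.01 in high glucose (SE 0.10, FDR 0.938), and high against low glucose gave 0.15 without VPA (SE 0.12, FDR 0.370). The sign of both VPA values turned with the GC and length offset, to -0.11 and -0.13, where the medians of all genes were -0.15 and -0.16.

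SIN3A (ENSG00000169375, chr15:75661720-75748183, minus strand), a scaffold that binds the amino-terminal end of REST, differed with glucose. It was measured at 98.9, 105 and 88.7 CPM in LG, 78.9, 69.8 and 69.7 CPM in HG, 87.7, 106 and 102 CPM in LGV, and 81.8, 76.7 and 80.9 CPM in HGV. Every high glucose library was below every low glucose library, with and without VPA. SIN3A was lower in HG than in LG by 0.40 on the log2 scale (SE 0.12, edgeR FDR 0.022), 1.32-fold, and lower in HGV than in LGV by 0.32 (SE 0.12, FDR 0.0358), 1.25-fold. VPA gave 0.03 in low glucose (FDR 0.882) and 0.13 in high glucose (FDR 0.302). SIN3A was the 1 member called among 8 between HG and LG, where 24.7% of 15452 genes were called, 12% higher and 12.7% lower (48.6% of the calls higher, 62.6% with library size alone, 64.3% with upper quartile factors and 41.4% with the GC and length offset).

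Both glucose calls of SIN3A rested close to the threshold. Without VPA the log2 difference was -0.38 without HG 2 (edgeR FDR 0.0871), -0.34 without HG 3 (FDR 0.155), -0.37 without LG 1 (FDR 0.0874) and -0.32 without LG 2 (FDR 0.0869). With VPA it was -0.34 without HGV 1 (FDR 0.0706), -0.29 without HGV 2 (FDR 0.0546), -0.33 without HGV 3 (FDR 0.0774), -0.27 without LGV 2 (FDR 0.156) and -0.30 without LGV 3 (FDR 0.145). Scaling by library size alone also ended both calls, at -0.30 (FDR 0.064) and -0.23 (FDR 0.0798), as did upper quartile factors, at -0.31 (FDR 0.0625) and -0.23 (FDR 0.103). Medians of all genes were 0.106 and 0.095 with library size alone and 0.102 and 0.101 with upper quartile factors. The GC and length offset ended the call with VPA (-0.25, FDR 0.101) and not the one without (-0.36, FDR 0.0129). The direction was the same in each of these.

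SIN3B (ENSG00000127511, chr19:16940209-16991164, plus strand), the second SIN3 scaffold, was lower with VPA in both media. Its levels were 51.9, 45.4 and 48.7 CPM in LG, 52.2, 56.4 and 52.0 CPM in HG, 37.3, 35.0 and 42.5 CPM in LGV, and 45.5, 39.7 and 46.3 CPM in HGV. All LGV libraries were below all LG libraries and all HGV libraries below all HG libraries, while HGV overlapped with LG. SIN3B fell by 0.33 on the log2 scale in low glucose (SE 0.12, edgeR FDR 0.0369), 1.26-fold, and by 0.29 in high glucose (SE 0.11, FDR 0.0412), 1.22-fold. The low glucose call was lost without LGV 1 (-0.30, FDR 0.104), LGV 2 (-0.27, FDR 0.161), LGV 3 (-0.40, FDR 0.0535), LG 1 (-0.29, FDR 0.107) or LG 3 (-0.32, FDR 0.0756). The high glucose call was lost without HGV 1 (-0.32, FDR 0.068), HGV 2 (-0.22, FDR 0.100), HGV 3 (-0.33, FDR 0.0529), HG 2 (-0.25, FDR 0.139) or HG 3 (-0.31, FDR 0.0957). Scaling by library size alone gave -0.17 in each medium (FDR 0.307 and 0.245), whereas the GC and length offset gave -0.54 (FDR 0.00137) and -0.64 (FDR 3.78e-05). Medians of all genes were 0.16 and 0.15 with library size alone and -0.15 and -0.16 with the offset.

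The ratio SIN3B/SIN3A, which needs no scaling, was 0.502 ± 0.0617 in LG (SD, n = 3), 0.739 ± 0.073 in HG, 0.391 ± 0.052 in LGV and 0.549 ± 0.028 in HGV. It fell with VPA by 0.39 on the log2 scale and was higher in high glucose by 0.53 (exact permutation p = 0.005 for each, the smallest the test allows, adjusted 0.0075). Leaving out each library in turn gave -0.45 to -0.34 for VPA and 0.47 to 0.57 for glucose, with adjusted p-values of at most 0.02. These genes differ in GC content (56.0% for SIN3B and 44.3% for SIN3A). With the GC and length offset, the difference between their log2 fold changes with VPA was -0.39 in low and -0.61 in high glucose. Without it these values were -0.36 and -0.42. For glucose the offset gave 0.55 without VPA and 0.34 with VPA (0.56 and 0.50 without the offset). The balance of the SIN3 transcripts thus differed with both factors, and in the tests of single genes SIN3A passed for glucose and SIN3B for VPA. Exons of SIN3A share 6.88% of their bases with a long non-coding RNA on the other strand, and the strand setting of the counting is not stated.

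NCOR1 (ENSG00000141027, chr17:15932379-16121499, minus strand) had the most reads of the 8 genes in LG. It was measured at 205, 216 and 187 CPM in LG, 177, 179 and 143 CPM in HG, 157, 169 and 177 CPM in LGV, and 132, 95.7 and 123 CPM in HGV. The HGV libraries were the lowest, without overlap with any other group, the LG libraries the highest, and HG and LGV overlapped. NCOR1 fell with VPA in high glucose by 0.51 on the log2 scale (SE 0.14, edgeR FDR 0.00861), 1.42-fold, and with high glucose under VPA by 0.53 (SE 0.13, FDR 0.00387), 1.45-fold. Both calls held without any single library, between -0.61 and -0.38 for VPA and between -0.63 and -0.40 for glucose. In low glucose the VPA difference was -0.26 (SE 0.11, FDR 0.0813), and without VPA the glucose difference was -0.26 (SE 0.13, FDR 0.137). The GC and length offset took the low glucose VPA difference past the threshold (-0.44, FDR 0.00794), beside a median of all genes of -0.15. The interaction was -0.23 (SE 0.18, FDR 0.675).

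**Figure D3:**
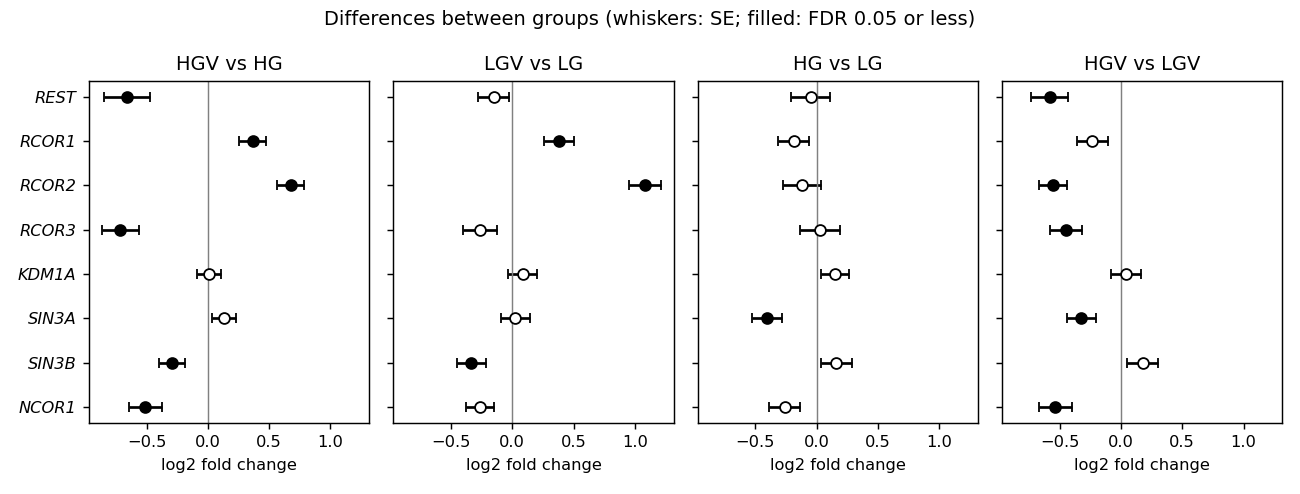
log2 fold change (x axis) of each repressor gene (y axis) in the 4 comparisons between groups, with the SE as whiskers. Filled points passed an FDR of 0.05. The panel HGV vs LGV has 5 filled points, all below 0, and KDM1A is open in every panel.

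Between HGV and LGV, 5 of the 8 genes were called and all 5 were lower in high glucose: REST, RCOR2, RCOR3, SIN3A and NCOR1. Of the 16208 genes tested 40.7% were called, 21.2% higher and 19.5% lower (52.2% of the calls higher, 62.0% with library size alone, 63.5% with upper quartile factors and 45.2% with the GC and length offset). The median log2 difference of the 8 was -0.39 and that of all genes 0.01. This comparison shares its HGV libraries with the comparison of HGV and HG, and its LGV libraries with that of LGV and LG. For REST the log2 value was -0.58 against LGV and -0.66 against HG, for NCOR1 -0.53 and -0.51, and for RCOR3 -0.45 and -0.71. RCOR2 was at -0.55 against LGV and 0.68 against HG, and SIN3A at -0.32 and 0.13, the last not called. The test of whether VPA acted differently in the 2 media called none of the 8 genes and 7 of all 16389 (0.0427%). At an unadjusted p of 0.05 or less it had 2 of the 8 (REST and RCOR2) and 1852 of all 16389 genes. DESeq2's Wald test called none of the 8 and 162 of all genes.

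Levels of different genes were compared per kilobase of transcript. By the length of the canonical transcript, LG means ran from 53.7 CPM per kb for KDM1A, through 18.9 for NCOR1, 14.5 for SIN3A, 9.93 for RCOR1, 9.66 for SIN3B, 8.75 for RCOR2 and 6.32 for RCOR3, to 5.20 for REST. In LGV, RCOR2 reached 18.3 CPM per kb and was above RCOR1 (12.9), whereas in LG it was below it. The order depends on the length used: with the summed length of all annotated exons, KDM1A had 9.04 CPM per kb in LG and NCOR1 was the highest at 13. REST was among the 2 lowest either way, at 4.04 CPM per kb of exon beside 3.11 for RCOR3.

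The genes whose levels followed those of a member most closely were found by the mean absolute difference, over the 12 libraries, of log2 CPM values centred on the mean of each gene, among 12479 genes. For REST these were OTUD4 (0.0691), WDFY3 (0.0705) and SOS1 (0.0779), with the mean absolute log2 difference in parentheses. The nearest gene was CDK8 for RCOR1 (0.0544), NLRC4 for RCOR2 (0.0928), BRCC3 for RCOR3 (0.0668), INTS12 for KDM1A (0.0455), LONP2 for SIN3A (0.0459), VAV2 for SIN3B (0.0532) and ASAP1 for NCOR1 (0.0666). These values describe likeness in these libraries only.

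The other subunits of CoREST, which bind around RCOR and KDM1A, moved in both directions. Of 11 listed partners, 3 were higher and 5 lower in HGV than in HG, 3 were higher and 3 lower in LGV than in LG, and the median log2 fold changes were -0.16 and 0.06. That is 72.7% and 54.5% called, beside 46.1% and 41.6% of all genes. Of all genes, 25.8% were higher and 20.2% lower in high glucose, and 21.7% and 19.9% in low glucose. The largest change was that of CTBP2, at 0.598 ± 0.217 CPM in LG (SD, n = 3), 0.21 ± 0.0389 in HG, 2.78 ± 0.734 in LGV and 1.54 ± 0.503 in HGV. It rose by 2.21 (edgeR FDR 7.43e-05) and 2.87 (FDR 4.5e-05) on the log2 scale, but on 6 to 34 reads in each untreated library, and 30.8% of its exon bases lie opposite ZRANB1, so its value is uncertain. CTBP1, the paralogue of CTBP2 with more counted reads here, fell from 164 ± 6.93 CPM in LG to 77.9 ± 2.66 in LGV (log2 fold change -1.06, FDR 3.32e-06) and from 159 ± 16.4 in HG to 85.1 ± 5.2 in HGV (-0.91, FDR 2.4e-05). HMG20B, which takes part in the repression of neuronal genes, rose from 32.8 ± 1.61 to 60.9 ± 5.08 CPM in low glucose (0.91, FDR 2.29e-05) and from 27.6 ± 3.21 to 61.7 ± 7.47 CPM in high glucose (1.16, FDR 1.34e-05). Its exons have a GC content of 65.4%, and with the GC and length offset it rose by 0.58 (FDR 0.00117) and 0.62 (FDR 8.98e-05). CTBP1 was at -1.39 with that offset in high glucose (FDR 3.18e-07).

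Among the remaining CoREST partners that were called in both media, the zinc finger proteins ZMYM3 (-0.50 in low and -0.62 in high glucose) and ZNF217 (-0.47 and -0.72) were lower with VPA, ZMYM3 with -0.93 in high glucose under the offset. HDAC1, the deacetylase of both the CoREST and SIN3 complexes, was higher by 0.58 in high glucose (edgeR FDR 0.000594) and by 0.45 in low glucose (FDR 0.0178). The low glucose call of HDAC1 was lost without LGV 2 (0.38, FDR 0.0753), LGV 3 (0.44, FDR 0.0573) or LG 1 (0.44, FDR 0.0696), and with the GC and length offset (0.33, FDR 0.0992), which gave 0.37 in high glucose (FDR 0.0028). HDAC2 was measured at 112 ± 8.38 CPM in LG (SD, n = 3) and 120 ± 10.8 CPM in LGV and was not called (FDR 0.502). PHF21A, which reads unmethylated lysine 4 of histone H3, was lower in high glucose (-0.43, FDR 0.00673) and not called in low glucose (0.17, FDR 0.352). HDAC2 and PHF21A were named after their values were seen.

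Among 17 SIN3 partners, the edgeR test called 5 higher and 2 lower with VPA in high glucose and 6 higher and 1 lower in low glucose. That is 41.2% called in each medium, close to or below the 46.1% and 41.6% of all genes. These partners had a median log2 value of 0.18 in both media. SAP30, a stabilising subunit, rose from 7.98 ± 0.315 to 13.9 ± 0.396 CPM in low glucose (SD, n = 3; 0.81, edgeR FDR 0.000613) and from 5.47 ± 0.548 to 8.05 ± 1.01 CPM in high glucose (0.56, FDR 0.0109). ING2, a reader of trimethylated lysine 4 of histone H3, rose by 1.15 (FDR 0.000239) and 0.83 (FDR 0.00131), and SUDS3 by 0.55 (FDR 0.00111) and 0.46 (FDR 0.00241). RBBP4, a histone-binding subunit, fell by 0.45 (FDR 0.0157) and 0.56 (FDR 0.00056), the first of which was not called without LGV 1 (-0.36, FDR 0.063) or LG 2 (-0.31, FDR 0.0662) or with library size alone (-0.29, FDR 0.0549), and 22.8% of its exon bases overlap SYNC. SAP30L was called at 0.34 (FDR 0.046) in low and 0.27 (FDR 0.0348) in high glucose. Its call was lost without any of LGV 2, LGV 3, LG 1 and LG 3 (0.24 to 0.37, FDR up to 0.160) and without any of HGV 1, HGV 3, HG 1, HG 2 and HG 3 (0.25 to 0.28, FDR up to 0.118). Both were also lost with DESeq2's test (0.33, FDR 0.0516, and 0.24, FDR 0.0725) and with the GC and length offset (0.19, FDR 0.248, and 0.09, FDR 0.328).

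Among 6 NCOR partners, VPA gave 3 higher and 2 lower in high glucose and 2 higher and 1 lower in low glucose. That is 83.3% and 50% called, beside 46.1% and 41.6% of all genes, on 6 genes. Their median log2 fold changes were 0.28 and 0.13. CORO2A rose from 30.5 ± 2.74 CPM in HG to 80.4 ± 0.204 in HGV (SD, n = 3; log2 fold change 1.4, edgeR FDR 5.37e-07) and from 35.5 ± 5.95 in LG to 61.1 ± 4.63 in LGV (0.80, FDR 0.000298). HDAC3, the deacetylase that NCOR1 activates, was higher by 0.54 (FDR 0.00315) in high glucose and by 0.36 (FDR 0.021) in low glucose, and TBL1X was lower by 0.47 (FDR 0.00255) and 0.40 (FDR 0.0115). In low glucose the call of HDAC3 was lost without LGV 2 (0.29, FDR 0.112), LGV 3 (0.37, FDR 0.0666) or LG 1 (0.36, FDR 0.0583) and with the GC and length offset (0.24, FDR 0.113), which gave 0.32 in high glucose (FDR 0.0153). That of TBL1X was lost without LGV 3 (-0.33, FDR 0.0916) and with library size alone (-0.24, FDR 0.0639).

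Of the 18 genes listed as further REST cofactors or as regulators of REST protein turnover, 16 were in the table (PRICKLE1 and SRRM4 were not). VPA in high glucose left 11 of these lower (68.8%) and 1 higher (6.25%), with a median log2 fold change of -0.38. VPA in low glucose left 8 lower (50%) and 1 higher (6.25%), with a median of -0.25. Among all genes tested, 20.2% were lower and 25.8% higher in high glucose (median 0.02). In low glucose 19.9% of all genes were lower and 21.7% higher (median -0.01). The 8 that were lower in low glucose were also called lower in high glucose. For VPA in high glucose, the paper describes a fall of genes that were highly expressed at the start. The shares of all genes are not matched for untreated level, and the part of level in these counts was not tested. CTDSP1 and CTDSPL, small phosphatases that act with REST at neuronal genes, fell most. CTDSP1 was measured at 143 ± 30.2 CPM in LG (SD, n = 3), 166 ± 12.5 in HG, 41.9 ± 4.68 in LGV and 52.0 ± 4.59 in HGV, and fell by 1.76 (edgeR FDR 8.75e-07) and 1.67 (FDR 1.7e-07) on the log2 scale. CTDSPL fell from 158 ± 15.2 to 82.0 ± 0.825 CPM in low glucose (-0.94, FDR 1.65e-05) and from 145 ± 7.87 to 59.2 ± 8.38 CPM in high glucose (-1.30, FDR 2.5e-06). The third phosphatase of the family, CTDSP2, fell by 0.72 in high glucose (FDR 0.00014) and by 0.52 in low glucose (FDR 0.0255), the latter not called without LGV 1 (-0.37, FDR 0.107), LGV 3 (-0.54, FDR 0.0577), LG 1 (-0.52, FDR 0.0876) or LG 2 (-0.35, FDR 0.105), nor with library size alone (-0.36, FDR 0.0623).

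SMARCA4, the ATPase of a remodelling complex that REST recruits, fell by 0.47 in low glucose (edgeR FDR 0.00609) and 0.57 in high glucose (FDR 0.000994). EHMT1, a methyltransferase for lysine 9 of histone H3, fell by 0.56 (FDR 0.0013) and 0.34 (FDR 0.0138), the latter not called without HG 2 (-0.30, FDR 0.0644) or with library size alone (-0.22, FDR 0.098). With the GC and length offset, EHMT1 was at -0.63 (FDR 3.03e-05) and SMARCA4 at -0.94 (FDR 1.17e-06) in high glucose, and SMARCA4 was at -0.31 in low glucose with library size alone (FDR 0.0305). Of the 16 cofactor genes, 8 were thus called lower with VPA in both media, where 2333 of all 15743 genes tested in both were.

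Between HG and LG, 1 of 11 CoREST partners was called higher and 1 lower (18.2% called), none of 17 SIN3 partners higher and 4 lower (23.5%), and none of 16 cofactors higher and 2 lower (12.5%). These shares are below the 24.7% of all genes called. By direction, 12% of all genes were higher and 12.7% lower. The 23.5% of SIN3 partners called lower is thus above the share of all genes, and the 12.5% of cofactors close to it. The SIN3 partners were ING1 (-0.69, edgeR FDR 0.00575), SAP30 (-0.52, FDR 0.0409), BRMS1 (-0.52, FDR 0.0108) and KDM5A (-0.41, FDR 0.0268), beside SIN3A itself at -0.40. The call of ING1 held without any single library. That of SAP30 was lost without any one of the 6 libraries (-0.58 to -0.46, FDR up to 0.136), that of KDM5A without HG 2, HG 3, LG 1 or LG 2 (-0.40 to -0.29, FDR up to 0.226), and that of BRMS1 without HG 3 (-0.52, FDR 0.0508) or LG 1 (-0.45, FDR 0.065). The CoREST partners were ZNF217, higher by 0.46 (FDR 0.0129) and not called without HG 1 (0.38, FDR 0.0605) or LG 1 (0.40, FDR 0.0686), and CTBP2, at -1.50 on few reads (FDR 0.0129) and not called without HG 3 (-1.42, FDR 0.0621) or LG 2 (-1.12, FDR 0.0871). The cofactors were the kinases CSNK1A1 (-0.43, FDR 0.0111) and DYRK1A (-0.39, FDR 0.0356), and 49.3% of the exon bases of CSNK1A1 overlap a long non-coding RNA of the table on the same strand, so its value is uncertain. CSNK1A1 was not called without HG 2, HG 3 or LG 1 (-0.41 to -0.39, FDR up to 0.0808), and DYRK1A without HG 1, HG 2, HG 3, LG 1 or LG 2 (-0.42 to -0.26, FDR up to 0.166). Library size alone, upper quartile factors and the replicate block each ended the calls of SAP30, KDM5A and DYRK1A as well (FDR 0.0502 to 0.103). Of the 6 NCOR partners edgeR called none, and 2 had an unadjusted p of 0.05 or less, as did 5863 of all 15452 genes.

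REST acts through its targets, so 45 neuronal and endocrine genes that are known to be bound or repressed by REST in other cells were followed, of which 26 were in the table. To see which of them carry the element itself, the sequence within 5000 bases of each gene start was searched on both strands for the letters CAGCACC and GGACAG with any 2 bases between them, which are the core of the RE1 element. These letters were found near 70 of 15975 genes searched (0.438%), near 8 of the 26 targets, and near none of the 8 repressor genes or their listed partners. A match is a description of the sequence and not evidence of binding in these cells, and its absence says only that these letters are not in this window. The 8 sequences are shown because they are the matches near the targets described next. Each is printed 5′ to 3′ on the strand of the match (GRCh37), with the 2 sets of letters in capitals:
GRIN1: ccgcttCAGCACCgcGGACAGcgccgg
SYP: gcgctcCAGCACCgtGGACAGagcccg
HCN2: cggtttCAGCACCacGGACAGcgcgcc
INA: cgagatCAGCACCgtGGACAGcgcccc
NPPA: aaacttCAGCACCatGGACAGaagaca
MMP24: ctgcttCAGCACCgcGGACAGgggcag
CHGB: gccggtCAGCACCgcGGACAGcgccag
CHRNB2: cggcttCAGCACCacGGACAGcgcccc

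The sites lie at chr9:140033708-140033734 (plus strand, an exon of GRIN1, 923 bases after the gene start), chrX:49056579-49056605 (minus strand, an intron of SYP, 85 bases after the start), chr19:591666-591692 (plus strand, an intron of HCN2, 1798 bases after the start) and chr10:105038763-105038789 (minus strand, an intron of INA, 1881 bases after the start). The others lie at chr1:11905768-11905794 (minus strand, an exon of NPPA, 2621 bases after the start), chr20:33814993-33815019 (plus strand, an intron of MMP24, 513 bases after the start), chr20:5892346-5892372 (plus strand, an intron of CHGB, 203 bases after the start) and chr1:154540426-154540452 (plus strand, an exon of CHRNB2, 185 bases after the start).

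The table holds only genes with a mean of at least 10 reads over all libraries, so a target that was silent without VPA entered it only if VPA raised it. Among the 26 targets, CHRM4 and NPPA had a mean under 10 reads in the untreated libraries, and the 19 targets outside the table were not followed. The counts below therefore describe the listed genes that passed this filter and support nothing about all REST targets. The shares of all genes given beside them are not matched for untreated level. The paper describes a rise with VPA in high glucose of genes with low starting levels, and its part in these counts was not tested. In high glucose 15 of the 26 were called higher and 4 lower (median log2 fold change 0.88, all genes 0.02), and in low glucose 17 were called higher and 3 lower (median 0.66, all genes -0.01). Of all genes tested, 25.8% were called higher and 20.2% lower in high glucose, and 21.7% and 19.9% in low glucose. In both media 15 were called higher and 3 lower. GRIN1, a glutamate receptor subunit whose site is the first printed above, was measured at 0.486, 0.474 and 0.460 CPM in LG, 0.666, 0.389 and 0.280 CPM in HG, 4.95, 4.87 and 3.60 CPM in LGV, and 8.80, 10.2 and 9.20 CPM in HGV. Every VPA library was above every untreated one, and HGV lay above LGV without overlap. GRIN1 rose by 3.24 on the log2 scale in low glucose (SE 0.27, edgeR FDR 4.25e-07) and by 4.41 in high glucose (SE 0.25, FDR 6.48e-08), from 10 to 21 reads in each untreated library.

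SYP, a synaptic vesicle protein, also has the letters close to its start and was the target with an RE1 match that had the most reads. It was measured at 6.10 ± 0.838 CPM in LG (SD, n = 3), 7.05 ± 0.711 in HG, 23.7 ± 2.01 in LGV and 38.7 ± 7.07 in HGV, and rose by 1.97 (edgeR FDR 3.8e-07) and 2.45 (FDR 1.3e-07). HCN2, a channel subunit of pacemaker currents, rose by 2.54 (FDR 1.27e-05) and 3.21 (FDR 6.21e-07), and INA, a neuronal intermediate filament, by 1.92 (FDR 0.000165) and 2.23 (FDR 1.14e-05). Of the other 4 genes with the letters, NPPA was called in low glucose only (1.80, FDR 0.00383, against 0.64, FDR 0.247 in high glucose, a difference that did not pass its own test, FDR 0.515). NPPA had 5 to 7 reads in each LG library. Part of the exon bases lies opposite another gene for NPPA (25.5%, CLCN6), MMP24 (18.4%, MMP24OS) and INA (13.9%, NT5C2). The strand setting of the counting is not stated, so these values may be affected. MMP24 was lower in HGV than in HG (-0.63, FDR 0.0416) with libraries that overlapped. Its call was lost without HGV 2 (-0.51, FDR 0.0983), HGV 3 (-0.57, FDR 0.117), HG 1 (-0.55, FDR 0.11) or HG 2 (-0.56, FDR 0.124), and with library size alone (-0.51, FDR 0.103) or upper quartile factors (-0.57, FDR 0.0581), and the GC and length offset gave -1.08 (FDR 0.00237). CHGB (0.06, FDR 0.868 in low and 0.40, FDR 0.184 in high glucose) and CHRNB2 (0.47, FDR 0.355 and 0.44, FDR 0.310) were not called. CHGB was called in high glucose without HGV 2 (0.57, FDR 0.047).

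The targets without the letters included some of the largest changes. CHRM4, a muscarinic receptor, had 3 to 6 reads in each untreated library and 3.58 ± 0.997 CPM in LGV and 5.65 ± 0.512 CPM in HGV (SD, n = 3), with fitted log2 fold changes of 4.84 (edgeR FDR 1.99e-07) and 5.64 (FDR 3.1e-08) that depend on those few reads. RUNDC3A rose by 2.88 (FDR 8.15e-07) and 3.92 (FDR 2.7e-07), DISP2 by 2.37 (FDR 2.21e-05) and 3.45 (FDR 2.05e-07), and UNC13A, which primes synaptic vesicles, by 2.34 (FDR 4.34e-06) and 2.12 (FDR 1.02e-05). These 4 genes reached at most 1.62 CPM in any untreated library, and 12.5% of the exon bases of DISP2 overlap another transcript on the same strand. CPLX2, a regulator of vesicle fusion that was chosen here after its values were seen, moved the other way, from 81.3 ± 38.7 CPM in LG to 17.3 ± 5.27 in LGV (-2.22, FDR 1.92e-05) and from 65.8 ± 9.07 in HG to 20.2 ± 1.79 in HGV (-1.71, FDR 5.23e-07). The neuronal markers RBFOX3, MAP2, ELAVL3 and ELAVL4 stood at or near the detection limit of these libraries, as given above.

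**Figure D4:**
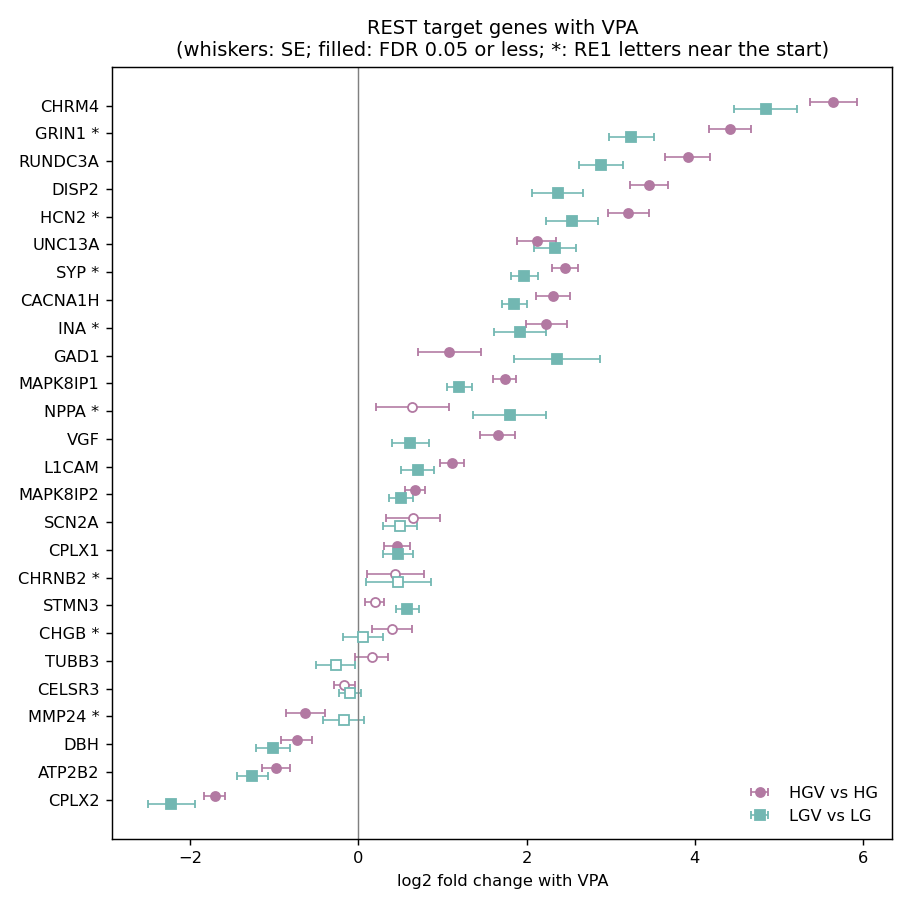
log2 fold change with VPA (x axis) of the 26 REST target genes in the table (y axis), in high glucose (circles) and low glucose (squares), with the SE as whiskers. Filled points passed an FDR of 0.05 and an asterisk marks the 8 genes with the RE1 letters, which run from 4.41 for GRIN1 to -0.63 for MMP24 in high glucose.

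Of all 70 genes with the RE1 letters, whichever their function, 69 were tested in high glucose and 25 of these were higher and 17 lower with VPA (median 0.33). In low glucose 26 of 68 were higher and 16 lower (median 0.23). These are 36.2% higher and 24.6% lower in high glucose, beside 25.8% and 20.2% of all genes, and 38.2% and 23.5% in low glucose, beside 21.7% and 19.9%. Of the 70 genes, 7 (10%) had a mean under 10 reads in the untreated libraries, and so passed the filter of the table through the VPA groups, as did 937 of all 16389 genes (5.72%). The shares are a description of the genes that passed. Some neighbouring genes share the same match, such as INA and NT5C2 or ALG12 and CRELD2, and were counted separately. The 70 genes are therefore not 70 separate sites. In both media 21 of 67 were higher and 12 lower, and of all genes 2754 of 15743 were higher and 2333 lower. Between HG and LG, where the level of REST did not pass the test, 5 of 63 genes with the letters were higher (7.94%) and 16 lower (25.4%), beside 12% and 12.7% of all genes. Of the 24 listed targets tested between HG and LG none was higher and 2 were lower: SCN2A, a sodium channel subunit with 3.89 ± 0.68 CPM in LG and 1.23 ± 0.24 CPM in HG (SD, n = 3; -1.64, edgeR FDR 0.000146), and VGF, a secreted neuropeptide precursor with 8.27 ± 1.53 and 3.29 ± 0.236 CPM (-1.30, FDR 0.000179).

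Set side by side with its targets, the log2 difference of REST with VPA in low glucose was -0.15 and not called, and that in high glucose was -0.66, while the target medians were 0.66 and 0.88. These medians cover only the 26 listed targets that passed the filter, CHRM4 and NPPA through the VPA groups. The list was chosen with earlier results of these data known, so the medians support nothing about the action of REST. Between HGV and LGV REST was lower by 0.58, and 6 of the 26 targets were called higher (23.1%) and 1 lower (3.85%). Of all genes tested 21.2% were higher and 19.5% lower, so the share of targets called higher is close to that of all genes. The median log2 difference of the targets was 0.18 and that of all genes 0.01. The level of REST protein, its binding and the activity of the deacetylases were not measured in these files.

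**Figure D5:**
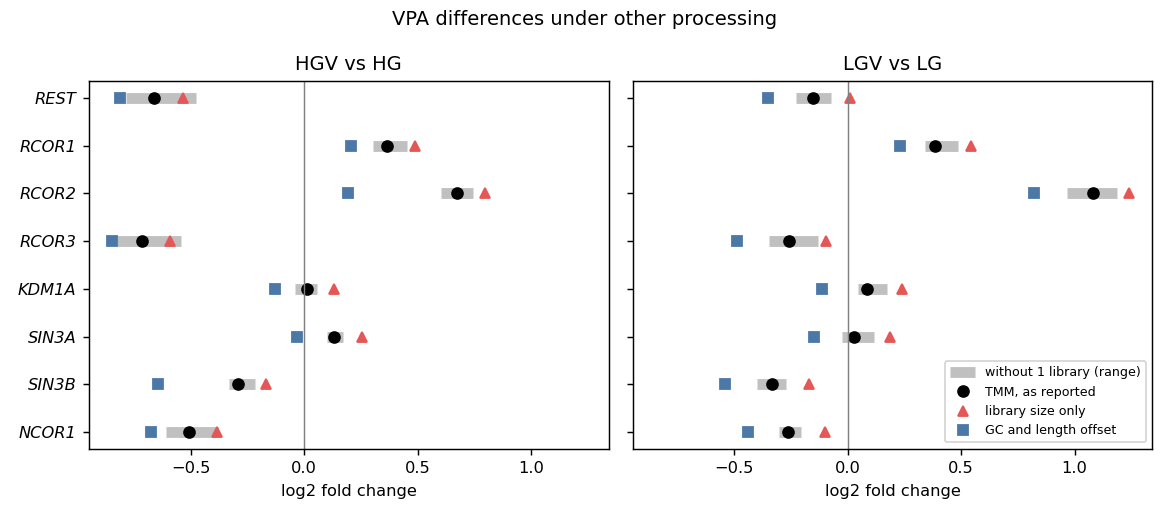
log2 fold change with VPA (x axis) of each repressor gene (y axis) in high glucose (left) and low glucose (right), as reported with TMM scaling (black circles), with scaling by library size alone (red triangles), with the GC and length offset (blue squares), and the range when 1 library is left out (grey bars). The offset lies to the left of the reported value for every gene, and RCOR2 in high glucose moves most, from 0.68 to 0.19. With the offset the median of all genes also moved left, to -0.16 in high and -0.15 in low glucose.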

How the data were processed

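Per the study's methods and the labels, reads were demultiplexed with bcl2fastq 2.17.1.14, aligned with STAR to GRCh37 and counted per Ensembl gene with featureCounts. The authors deposited raw read counts for 16389 genes, each with a mean of at least 10 reads per library. The library kit keeps strand, and the strand setting of the counting is not given in the sources used here. The 8 genes and all gene lists were chosen with earlier results of these data known.

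Each pair of groups was fitted with edgeR 4.0.16 in R 4.3.3 (TMM, quasi-likelihood F test, mean count of at least 10), and the interaction over 12 libraries. Genes were called at a Benjamini-Hochberg FDR of 0.05 or less. Folds are fitted, so genes with few reads untreated have uncertain ones. From each partner or target list at most 6 genes were named, those with the largest change among genes called in both media, or between HG and LG; some that meet this rule are not reported here. Ratios between paralogues were tested by exact permutation within strata. Alternatives were the size factors and Wald test of DESeq2 1.42.0, library size or upper quartile scaling, the likelihood ratio test, no filter or 1 CPM in 3 libraries, the replicate block, one fit of 12 libraries, an FDR of 0.01 and leaving out each library. An offset for GC content and length (spline, 5 degrees of freedom) and the search for RE1 letters were added after seeing the data. Positions are from GENCODE v44 lifted to GRCh37, which placed 15975 genes (97.5%) by identifier. The analysis used Python 3.11.15 (pandas 2.3.3, pysam 0.24.0). edgeR was also run on simulated counts with few changed genes, balanced in direction, and no effect of GC content. That run says nothing about data with many changed genes or a GC effect, as here.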

Additional observations from a re-analysis of the deposited data

How the results depend on the processing

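Of 720 log2 values of the 8 repressor genes under other settings, 641 kept their direction and their side of the threshold, 46 fell short of it, 3 passed it and 30 changed sign, the latter all for values that were not called. Only results called as reported could fall short, and most were not called, so the 641 do not measure how stable the calls are. The number of members called between HG and LG, 1 as reported, was 0 with library size alone, with upper quartile factors, with the replicate block and at an FDR of 0.01, and 0 to 1 when a library was left out (0 without HG 2, HG 3, LG 1 or LG 2). At an FDR of 0.01 there were 3 members in HGV against HG, 1 in LGV against LG and 3 in HGV against LGV. Of all genes, every setting called at least 5461 in HGV against HG and at least 4607 in LGV against LG. As reported, 16188 and 15944 genes were tested there, so these member counts are no more than a description. In LGV against LG the GC and length offset, chosen after seeing the data, called 5 members and 7456 of all genes. Leaving out a library gave 1 to 3 members there (fewest without LGV 2, LGV 3 or LG 1), and in HGV against LGV 3 to 5 (fewest without LGV 3). Genes called between HG and LG were 3813 as reported, 1852 at an FDR of 0.01 and 1933 to 5338 without a library, and between HGV and LGV 6604 as reported and 4263 at an FDR of 0.01. The interaction, with 7 genes as reported, had 162 with DESeq2's Wald test, 202 with the likelihood ratio test, 39 with the offset, 1 with library size alone, 1 at an FDR of 0.01 and 1 to 217 without a library, none of them a member in any setting. The cause of these differences was not tested.

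Signs turned for REST between HG and LG (0.0529 with library size alone, 0.0446 with upper quartile factors, -0.23 to 0.062 without a library) and in LGV against LG (0.0116 with library size alone). They turned without a library for RCOR2 between HG and LG (-0.21 to 0.0153), for RCOR1 in the interaction (-0.11 to 0.0502), for the RCOR3/RCOR1 ratio with glucose (-0.0866 to 0.0534) and for KDM1A in HGV against LGV (-0.0301 to 0.0923). RCOR3 between HG and LG gave -0.0097 with the offset and -0.14 to 0.19 without a library. KDM1A in HGV against HG gave -0.0258 with DESeq2's test and with its size factors, -0.13 with the offset and -0.0397 to 0.0588 without a library, and in LGV against LG -0.11 with the offset. SIN3A gave -0.0318 in HGV against HG and -0.15 in LGV against LG with the offset, and -0.0274 to 0.11 in the latter without a library. SIN3B gave -0.0824 with the offset and -0.036 to 0.14 without a library in the interaction, and CHGB in LGV against LG -0.0625 and -0.075 to 0.17. For the 39 other genes followed, 1156 of 1253 values were as reported, 94 fell short, 1 passed and 2 changed sign.

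With replicate number as a block (replicate block), 3351 genes were called between HG and LG, 8229 in HGV against HG, 6971 in LGV against LG, 7308 in HGV against LGV and 13 in the interaction, and the block changed the number of members called only between HG and LG. Nothing in the labels says what a shared number stands for. Deviations of same-numbered libraries from their group means correlated at a mean of -0.18 between LG and HG, 0.13 between HG and HGV, 0.09 between LG and LGV and 0.13 between LGV and HGV, and in no comparison did every library correlate best with its own number. Depth limits the targets and partners with few reads in untreated libraries, such as CHRM4, GRIN1 and CTBP2.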
